A study of Mus musculus with 12 samples.

Results

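The nuclear hormone receptors described here are 36 genes, chosen by a list of symbols and not by their signals, out of 22206 transcripts measured in the M. gastrocnemius, the large calf muscle, of male C57BL/6J mice aged 6.5 months. Earlier results of these data were known when the list was chosen. The mice received a diet with high phosphorus (1.2%, P1.2 group) or an adequate one (0.3%, P0.3 group) for 6 weeks. The added phosphorus came as potassium phosphate, while the adequate diet also held potassium bicarbonate, which the high one lacked, and slightly more cornstarch. The study held 12 mice per diet in cages of 2, and 6 mice of each diet were measured with 1 Clariom S mouse array per mouse, so that each n is a count of mice. Which mice shared a cage was not given in the sources used here. The 36 genes have 39 rows on the array. For Rora and Rorb, which have several rows, the row with the highest mean signal was taken, and this row is in both cases one that the array table does not map to the genome.

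Nuclear hormone receptors are transcription factors that bind DNA through a zinc finger domain and, in most cases, carry a pocket for a small lipophilic ligand such as a steroid, thyroid hormone, retinoic acid, an oxysterol or active vitamin D. Many of them act as heterodimers with a retinoid X receptor (RXR), recruiting corepressors without ligand and coactivators with it, while steroid receptors wait in complexes with heat shock proteins until they are bound. In skeletal muscle, thyroid hormone receptors set fibre type and calcium pump expression, the glucocorticoid receptor drives protein breakdown, and ROR, LXR and COUP factors act on lipid handling.

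The sequences through which such receptors find their genes are short, and the promoters of 3 members are shown because the results below turn on Rora and Rxrg, and because Rarb is the textbook case of a receptor gene with a response element for its own ligand. The RefSeq promoter table (build GRCm38.p6) held 32 of the 36 members, and Thra, Hnf4g, Nr5a1 and Nr3c1 were not matched. Each run is the 250 bases before an annotated start, 5′ to 3′. Capitals mark every match, on either strand, to the half-site AGGTCA, to a direct repeat (GTTCA, then 6 bases of any kind, then GTTCA) and to the E-box CANNTG, the site of myogenic factors.
Rarb (chr14:16575477-16575726, minus strand): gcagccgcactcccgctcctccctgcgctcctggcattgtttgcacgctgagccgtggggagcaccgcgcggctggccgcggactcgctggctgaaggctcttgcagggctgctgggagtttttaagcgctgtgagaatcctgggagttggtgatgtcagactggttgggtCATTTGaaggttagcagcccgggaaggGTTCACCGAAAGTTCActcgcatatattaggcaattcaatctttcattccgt
Rora (chr9:68653536-68653785, plus strand): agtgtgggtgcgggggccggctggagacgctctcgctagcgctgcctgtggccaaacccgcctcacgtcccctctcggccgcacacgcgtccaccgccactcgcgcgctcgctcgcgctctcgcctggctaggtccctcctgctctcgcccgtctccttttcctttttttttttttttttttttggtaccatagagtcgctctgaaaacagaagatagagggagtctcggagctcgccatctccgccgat
Rxrg, first start (chr1:167598112-167598361, plus strand): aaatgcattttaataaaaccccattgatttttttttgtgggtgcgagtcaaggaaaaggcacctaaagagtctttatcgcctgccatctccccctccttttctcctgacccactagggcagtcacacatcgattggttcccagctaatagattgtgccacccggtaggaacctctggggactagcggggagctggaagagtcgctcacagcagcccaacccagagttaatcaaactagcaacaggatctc
Rxrg, second start (chr1:167618015-167618264, plus strand): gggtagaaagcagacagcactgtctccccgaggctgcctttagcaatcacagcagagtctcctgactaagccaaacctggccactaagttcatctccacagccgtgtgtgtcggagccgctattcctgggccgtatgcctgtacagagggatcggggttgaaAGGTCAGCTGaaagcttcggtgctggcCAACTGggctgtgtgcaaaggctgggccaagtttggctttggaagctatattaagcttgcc
The direct repeat stood in the window of Rarb, from -52 to -37 relative to the start, and in 22 of all 32851 windows of the table (0.067%). Rarb was chosen for its known response element, so its match was known in advance and is no result of this search. The window of the second Rxrg start held the half-site from -88 to -83, sharing 2 letters with the E-box beside it, and the half-site was found in 8 of the 47 windows of the matched receptors and in 14% of all windows. E-boxes stood in 66.2% of all windows. The window of Rora and that of the first Rxrg start held no match to these 3 motifs, which says only that these letters do not stand in these windows.

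Of the 36 receptors, 21 had a mean log2 signal above background and 10 of these were well expressed. The background level was 6.11, the 95th percentile of the mean signals of 1455 olfactory and vomeronasal receptor transcripts, which are hardly used in muscle. Well expressed means above 8.71, the 75th percentile of all transcripts. Among all 22206 transcripts 53.5% lay above background and 25% above the 75th percentile. Signals of different transcripts also depend on their probes, so they are read here in these coarse classes and not against each other.

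The well expressed receptors were Rora, the retinoid X receptor gene Rxrg and its relative Rxra, the COUP transcription factor gene Nr2f2, both thyroid hormone receptor genes Thra and Thrb, the oxysterol receptor gene Nr1h2 (LXR beta), the retinoic acid receptor gene Rarb, the mineralocorticoid receptor gene Nr3c2 and the glucocorticoid receptor gene Nr3c1. Another 11 lay between the levels, namely Rara, Rarg, Rxrb, Nr1h3 (LXR alpha), Nr2c1, Nr2c2, Nr4a2, Nr6a1, Esr1, the vitamin D receptor gene Vdr and Nr0b2. Nr0b2, which encodes the DNA-binding-domain-less repressor SHP, was the only one of the 21 that was not above background on each array, passing it on 8 of 12. At or below background lay 15 receptors, among them the bile acid receptor gene Nr1h4, the xenobiotic receptor genes Nr1i2 and Nr1i3, Hnf4a and Hnf4g, Esr2, Pgr, Rorb, Nr2f1, Nr2f6, Nr2e1, Nr2e3, Nr5a1, Nr5a2 and Nr0b1. Of these 15, 10 were below background on every array. These are mostly receptors known from liver, gonad, adrenal, retina or brain, and a difference in their signals is a difference at the level of the array's background.

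The labelled tissue was matched by its markers. The list of 10 skeletal muscle genes such as Acta1 and Ckm had all members above background, with list means of 19.14 to 19.31 in P1.2 mice and 19.18 to 19.30 in P0.3 mice. Transcripts of slow fibres varied widely between mice of both diets. The mean of 10 transcripts typical of slow fibres, Myh7 and Tnni1 among them, called the slow fibre mean below, ran from 8.81 to 13.10 in P1.2 mice and from 8.47 to 12.86 in P0.3 mice. It averaged 10.50 ± 1.67 in P1.2 mice and 10.53 ± 1.90 in P0.3 mice (SD, n = 6 each, exact permutation test, p = 0.970). On 3 of 12 arrays it stood at 12.86 or above, namely P1.2 replicate 12 and P0.3 replicates 9 and 11. For the receptors, values with and without these 3 arrays are given where a result rests on them. Correlations of marker lists with the slow fibre mean were not computed without all 3. There only the 2 arrays farthest from the median, P1.2 replicate 12 and P0.3 replicate 9, were left out, so that P0.3 replicate 11 stayed in.

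**Figure D1:**
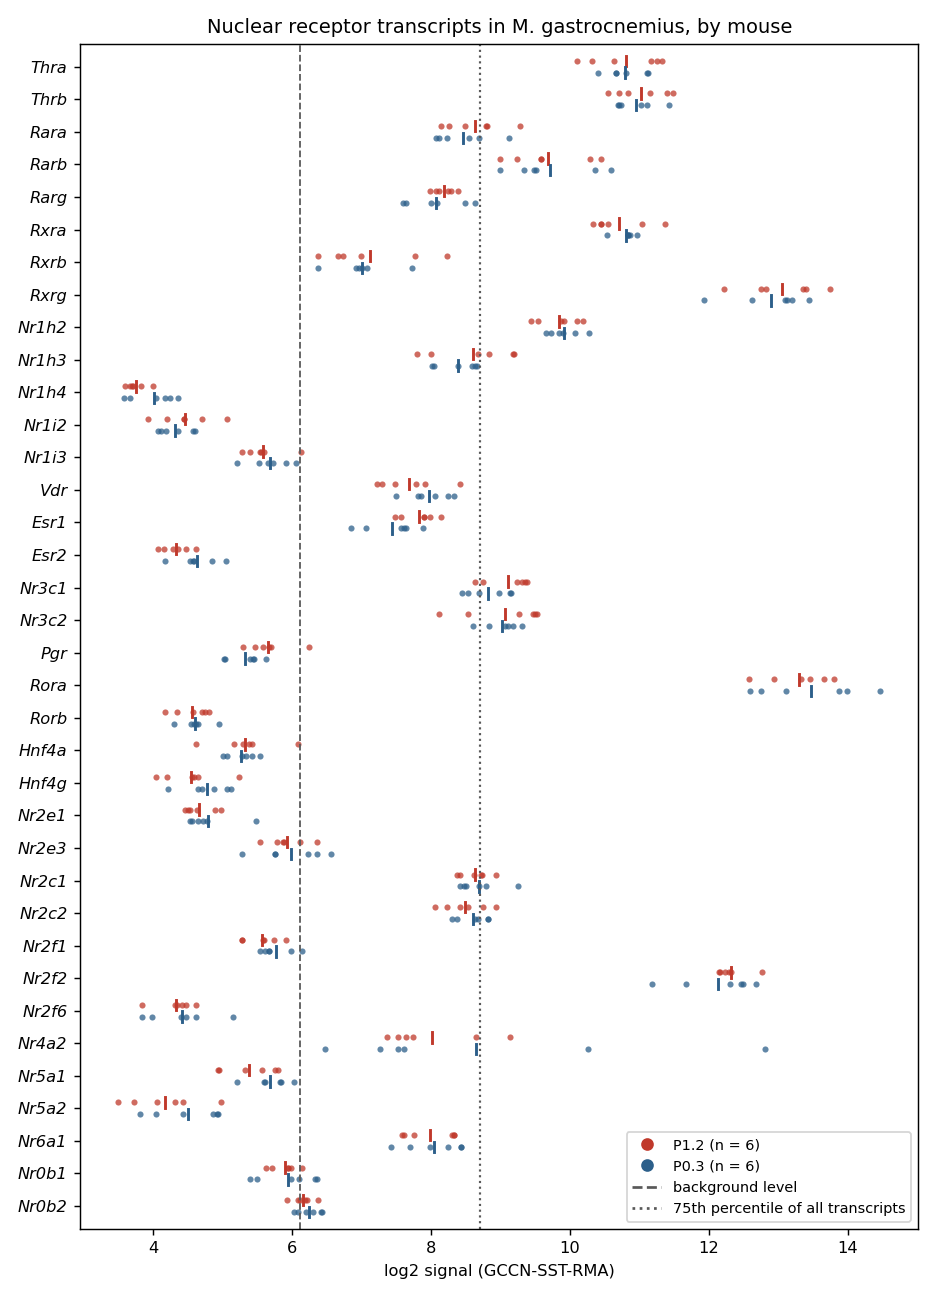
Log2 signals (x axis) of the 36 receptors (y axis, ordered by receptor group) in the 6 P1.2 mice (red, upper row of each gene) and the 6 P0.3 mice (blue, lower row); ticks are group means, the dashed line is the background level of 6.11 and the dotted line the 75th percentile of all transcripts, 8.71. The groups of every receptor overlap, and the 2 far points of Nr4a2 belong to P0.3 replicates 9 and 11.

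In the comparison of the diets, 1 of 36 receptors, the estrogen receptor alpha gene Esr1, was higher in P1.2 mice at the criteria used here, the study's threshold of more than 1.3-fold together with a limma p below 0.05 before adjustment, in place of the p of the methods' t-test. The count of lower receptors was 0 of 36. Among all transcripts 204 were higher (0.919%) and 303 lower (1.36%), and 3.25% had an unadjusted p under 0.05, against 1 of the 36 receptors. After Benjamini-Hochberg adjustment over all transcripts limma called 0 receptors and 0 transcripts (0%), and the smallest adjusted p was 0.9999 in both. The methods' t-test gave 0 receptors with an unadjusted p under 0.05. P1.2 and P0.3 mice overlapped for each receptor, while 34 transcripts (0.153%) had groups without overlap.

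The differences of the receptors were small and lay on both sides of 0. The log2 fold change (P1.2 minus P0.3) was positive for 14 receptors and negative for 22, with a median of -0.05, against -0.01 over all transcripts. The 21 receptors above background had a median that lay at 0.0037, with 11 positive, and all 11873 transcripts above background one of 0.01. The 15 at or below background had a median of -0.10, with 3 positive, where the sensory receptor transcripts had -0.05. The 95% interval of limma stayed within 2-fold in either direction for 35 receptors, the exception being Nr4a2, and within 1.5-fold for 5 of the 10 well expressed ones.

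**Figure D2:**
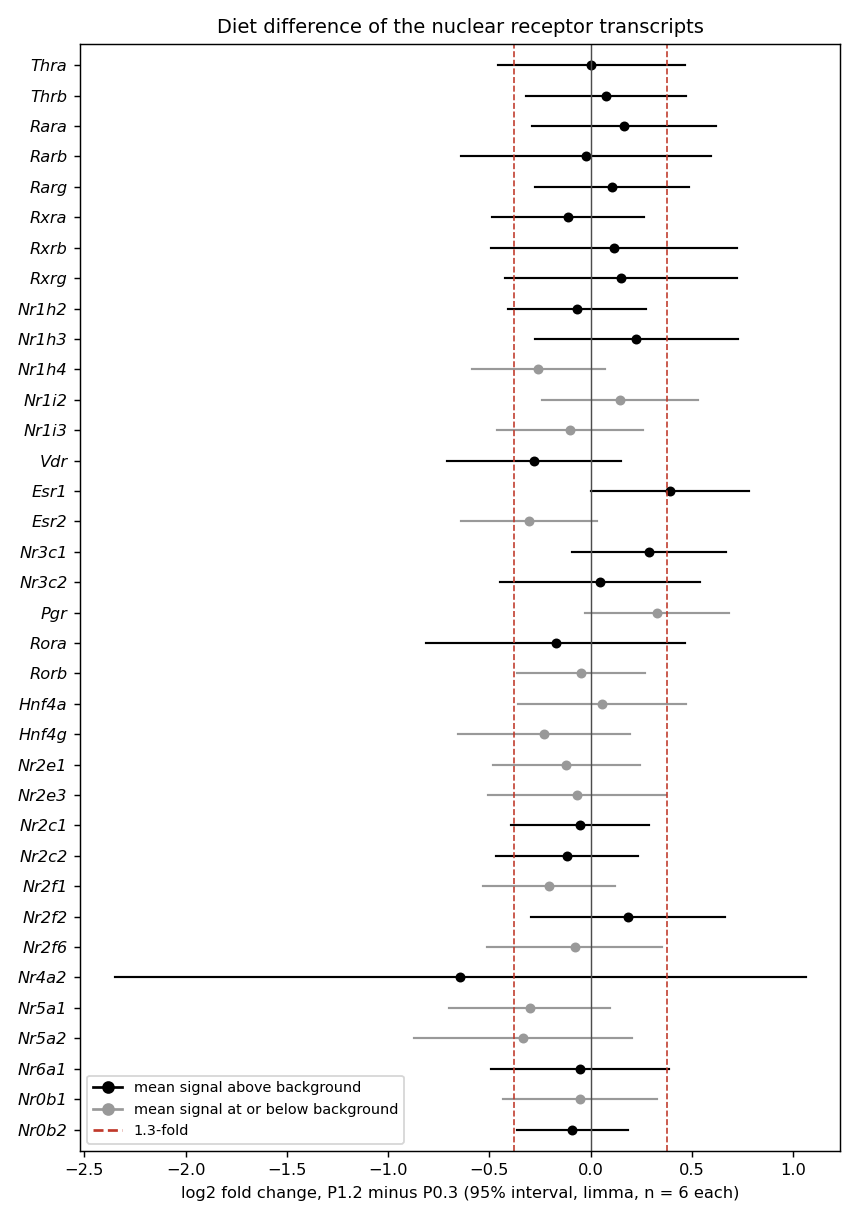
Log2 fold change, P1.2 minus P0.3, of the 36 receptors with the 95% interval of limma (x axis, n = 6 mice each); black marks receptors above background, grey those at or below it, and the dashed lines mark 1.3-fold. Only the interval of Esr1 leaves out 0, and that of Nr4a2 is the widest.

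Among the steroid receptors, Esr1, whose product binds estradiol and acts on muscle lipid and glucose use, had log2 signals of 7.98, 8.15, 7.89, 7.57, 7.90 and 7.48 in P1.2 replicates 2, 4, 6, 8, 10 and 12. In P0.3 replicates 1, 3, 5, 7, 9 and 11 it had 7.89, 7.56, 7.61, 7.64, 6.85 and 7.07. All 6 P1.2 mice lay above the P0.3 mean, but the groups overlapped, and the low P0.3 values belonged to replicates 9 and 11. The means were 7.83 ± 0.26 in P1.2 mice and 7.44 ± 0.39 in P0.3 mice (SD, n = 6 each), a log2 fold change of 0.39 with a standard error of 0.18 (limma, unadjusted p = 0.049, adjusted p = 0.9999). The exact permutation test, two-sided and run over every way to split the arrays evenly, gave p = 0.076, where 0.0022 is the smallest it can give. The call was lost with the methods' t-test, with array weights (log2 fold change 0.377, under the threshold of 0.3785), with quantile normalization (0.3782), and when 1 of P1.2 replicates 2, 4, 6 and 10 or P0.3 replicates 3, 9 and 11 was left out. Without the 3 arrays of highest slow fibre mean the log2 fold change of Esr1 was 0.22, and with the slow fibre mean as a covariate it was 0.39 (limma, adjusted p of 0.9998 and 1.0).

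The glucocorticoid receptor gene Nr3c1 gave 9.30, 8.76, 9.36, 9.39, 9.24 and 8.63 in P1.2 replicates 2 to 12, against 9.14, 8.54, 8.98, 9.15, 8.69 and 8.45 in P0.3 replicates 1 to 11. Of the P1.2 mice, 4 of 6 lay above every P0.3 mouse. Its log2 fold change of 0.29 (SE 0.18, limma, p = 0.126, exact permutation test, p = 0.147) passed the criteria only when P1.2 replicate 12 was left out, with 0.39. The mineralocorticoid receptor gene Nr3c2, which binds aldosterone and also glucocorticoids, ran from 8.11 to 9.52 (median 9.37) in P1.2 mice and from 8.61 to 9.32 (median 9.09) in P0.3 mice. Its difference was 0.05 (SE 0.23). The progesterone receptor gene Pgr and the estrogen receptor beta gene Esr2 lay at background, with log2 fold changes of 0.33 (SE 0.17) and -0.30 (SE 0.16), and both missed the criteria (exact permutation test, p = 0.074 and 0.069).

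Other genes of glucocorticoid signalling were described from a list of 12 targets. Of these 12 targets 1 was higher at the criteria and 0 lower, against 0.919% and 1.36% of all transcripts. The higher target was Ddit4, an inhibitor of mTOR complex 1, whose mean signal of 5.53 was below background (log2 fold change 0.52, SE 0.24, exact permutation test, p = 0.076). The log2 fold changes of the list had a median of 0.22, with 11 of 12 above 0. Over all transcripts the median was -0.01, with 10667 of 22206 above 0. The list mean was 10.89 ± 0.44 in P1.2 mice and 10.63 ± 0.11 in P0.3 mice (SD, n = 6 each), and its difference between the diets was not tested. P1.2 replicate 6 had the highest list mean, 11.62, and there the immunophilin gene Fkbp5 had 14.22, where the other P1.2 mice had 10.98 to 12.62 and the P0.3 mice 11.05 to 12.23. Without P1.2 replicate 6, P1.2 replicate 12 or P0.3 replicate 9 the count of called genes over all 12 lists was 0. Among the 10 receptor chaperones, such as Hsp90aa1 and Fkbp4, 0 were called in either direction.

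Both thyroid hormone receptors were well expressed and differed between the diets by less than the spread between mice. Thra, the alpha form that prevails in muscle and heart, ran from 10.10 to 11.33 (median 10.90) in P1.2 mice and from 10.40 to 11.12 (median 10.74) in P0.3 mice, a difference of 0.0037 (SE 0.22, 95% interval -0.46 to 0.47). Thrb ran from 10.55 to 11.48 (median 11.00) in P1.2 mice and from 10.69 to 11.42 (median 10.88) in P0.3 mice, a difference of 0.08 (SE 0.19). Of 9 genes of thyroid hormone supply, such as the deiodinases, 0 were called, and Slc7a5, a carrier of large neutral amino acids and thyroid hormone, had the smallest p (log2 fold change -0.29, SE 0.17, exact permutation test, p = 0.119). Of 12 thyroid hormone targets 1 was higher, against 0.919% of all transcripts, namely Thrsp, a regulator of lipogenesis. Its signals were 9.04, 8.72, 9.54, 8.32, 8.41 and 9.34 in P1.2 mice and 8.47, 8.77, 8.13, 8.65, 8.43 and 8.21 in P0.3 mice. The groups overlapped, and the log2 fold change of 0.45 (SE 0.21, limma, adjusted p = 0.9999) came with an exact permutation p of 0.080. The calls of Thrsp and of Ddit4 were each lost in 7 of 12 fits that left out 1 array.

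The retinoic acid receptors Rara, Rarb and Rarg all lay above background, with log2 fold changes of 0.16 (SE 0.21), -0.02 (SE 0.29) and 0.11 (SE 0.18). Rarb, whose promoter holds the direct repeat shown above, ran from 9.0 to 10.45 (median 9.58) in P1.2 mice and from 8.99 to 10.60 (median 9.50) in P0.3 mice. Of 16 genes of retinoid supply and 10 retinoic acid targets 0 were called. The smallest p in both lists belonged to the retinaldehyde reductase gene Dhrs3, which stands in both (log2 fold change 0.45, SE 0.22, exact permutation test, p = 0.113).

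The retinoid X receptors are the shared partners of the thyroid hormone, retinoic acid, LXR and vitamin D receptors. Rxra gave 10.33, 10.45, 10.45, 11.04, 11.37 and 10.55 in P1.2 replicates 2 to 12 and 10.84, 10.84, 10.54, 10.86, 10.84 and 10.96 in P0.3 replicates 1 to 11. Both the lowest and the highest values were those of P1.2 mice (SD 0.41, against 0.14 in P0.3 mice), and the log2 fold change was -0.11 (SE 0.18, exact permutation test, p = 0.576). Rxrg, the form known from muscle and brain, gave 12.76, 12.83, 13.35, 13.39, 13.74 and 12.22 in P1.2 mice, against 13.43, 13.19, 13.12, 13.10, 12.62 and 11.92 in P0.3 mice. The groups of Rxrg overlapped widely and its difference of 0.15 (SE 0.27, exact permutation test, p = 0.649) turned to -0.05 without P0.3 replicate 11. Rxrb ran from 6.37 to 8.22 (median 6.86) in P1.2 mice and from 6.37 to 7.72 (median 6.99) in P0.3 mice.

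The LXR genes encode receptors of oxysterols that switch on cholesterol export and fatty acid synthesis. Nr1h2 gave 10.19, 9.87, 10.11, 9.44, 9.91 and 9.54 in P1.2 mice, against 10.27, 9.84, 10.07, 9.90, 9.66 and 9.73 in P0.3 mice, a difference of -0.07 (SE 0.16, exact permutation test, p = 0.649). Leaving out P1.2 replicate 8 or P0.3 replicate 1 turned its sign, so that no direction could be given. Nr1h3 ran from 7.80 to 9.19 (median 8.75) in P1.2 mice and from 8.02 to 8.66 (median 8.48) in P0.3 mice (log2 fold change 0.22, SE 0.24). Of 11 LXR targets 0 were called, and the stearoyl-CoA desaturase gene Scd1 had the smallest p (log2 fold change -0.58, SE 0.57, exact permutation test, p = 0.429). Vdr, the receptor of active vitamin D and part of phosphate and calcium regulation, ran from 7.23 to 8.41 (median 7.63) in P1.2 mice and from 7.5 to 8.33 (median 7.96) in P0.3 mice. Its log2 fold change was -0.28 (SE 0.20, exact permutation test, p = 0.227), and of all fits run it was called lower only without P1.2 replicate 4, its highest array. Of 16 genes of steroid and sterol ligand supply, which hold the vitamin D enzymes Cyp27b1 and Cyp24a1, 0 were called.

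Among the orphan receptors, Nr2f2, a regulator of vessels, stroma and muscle progenitors, gave 12.31, 12.16, 12.23, 12.29, 12.76 and 12.14 in P1.2 replicates 2 to 12. In P0.3 replicates 1 to 11 it gave 12.67, 12.30, 12.47, 12.49, 11.67 and 11.18. The lowest pair was P0.3 replicates 9 and 11, and the difference of 0.18 (SE 0.23, exact permutation test, p = 0.506) was -0.0058 without P0.3 replicate 11 and -0.13 without the 3 arrays of highest slow fibre mean. The testicular receptors Nr2c1 and Nr2c2 and the germ cell factor Nr6a1 had log2 fold changes of -0.05, -0.12 and -0.05 (SE 0.16, 0.17 and 0.21).

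Nr4a2, an immediate early gene that needs no ligand, had by far the widest spread of the 36 receptors, 6.34 log2 units over the 12 arrays. It gave 7.37, 7.53, 7.75, 7.65, 8.64 and 9.13 in P1.2 replicates 2 to 12, against 7.61, 6.47, 7.52, 7.27, 10.26 and 12.80 in P0.3 replicates 1 to 11. P0.3 replicates 9 and 11 stood above every P1.2 mouse, while each of the other 4 P0.3 mice lay below at least 4 of the 6 P1.2 mice. The log2 fold change was -0.64 (SE 0.81, exact permutation test, p = 0.610), 0.19 without P0.3 replicate 11 and 0.57 without the 3 arrays of highest slow fibre mean. Its relative Nr4a1 was also highest on P0.3 replicates 9 and 11, with 13.08 and 13.35, against 11.66 to 12.43 in P1.2 mice. Nr4a3 was highest on P1.2 replicate 12, with 13.19, followed by P0.3 replicate 9 with 12.01 and P1.2 replicate 6 with 11.41. The NR5A genes lay at background, where Nr5a2, a regulator of bile acid and steroid synthesis, gave 4.98, 4.43, 3.72, 4.06, 4.32 and 3.50 in P1.2 mice, against 4.86, 4.43, 4.94, 4.92, 4.04 and 3.81 in P0.3 mice (log2 fold change -0.33, SE 0.25, exact permutation test, p = 0.288).

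Other nuclear receptors and cofactors gave few or no calls. Of 133 genes in 12 lists, 100 lay above background, 2 were higher (Thrsp and Ddit4) and 0 lower at the criteria. The shares of all transcripts were 53.5% above background, 0.919% higher and 1.36% lower. For the 12 other nuclear receptors, such as Ppara, Esrra and Nr1d1, the 16 coactivators, the 12 corepressors and the 8 ROR targets the counts were 0 in both directions. Without the 3 arrays of highest slow fibre mean, however, Ppara, Esrrg and Nr4a3 of the other nuclear receptors were called. In the coactivators, the corepressors and the ROR targets the smallest p belonged to Trip4 (log2 fold change 0.24), Tbl1x (-0.21) and Cry1 (-0.22), with exact permutation p of 0.273, 0.364 and 0.119. The mean signal of Trip4, 5.10, was below background.

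**Figure D3:**
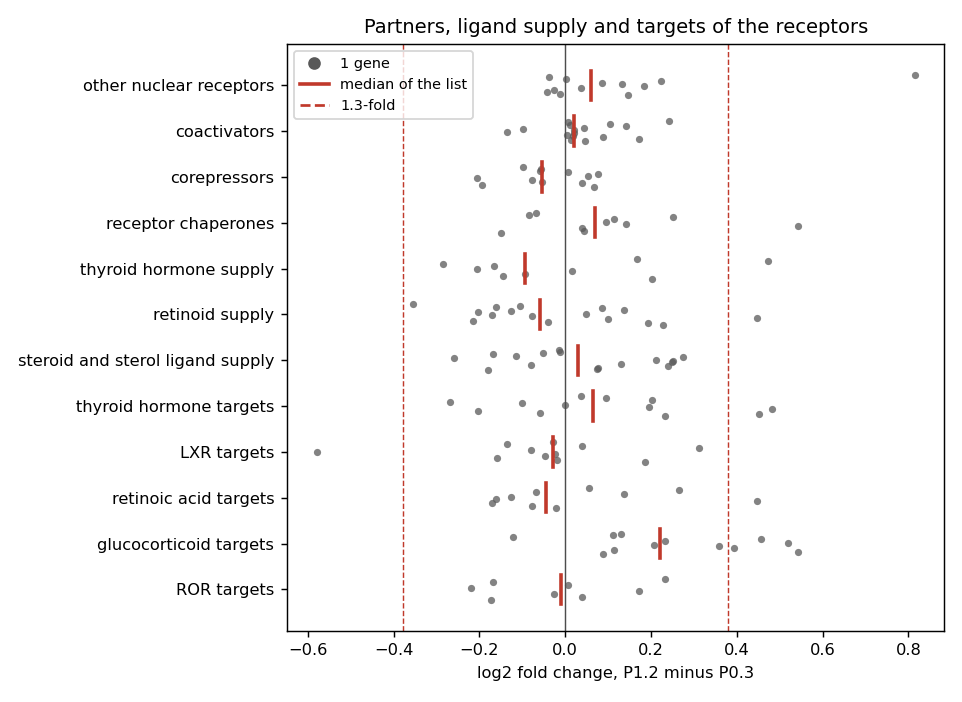
Log2 fold change, P1.2 minus P0.3 (x axis, n = 6 mice each), of the single genes (grey points) in 12 lists of other receptors, cofactors, ligand supply and targets (y axis); the red bar is the median of the list and the dashed lines mark 1.3-fold. The medians lie close to 0, and the list of glucocorticoid targets has the highest, 0.22.

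Across the mice, 1 of the 36 receptors was called in its correlation with the slow fibre mean. The retinoid-related orphan receptor gene Rora, whose product regulates the clock and muscle lipid genes, was lower where slow fibre genes were higher. In order of rising slow fibre mean, Rora gave 13.81, 13.66, 13.45, 13.32, 12.94 and 12.58 in P1.2 replicates 4, 10, 6, 8, 2 and 12. In the same order it gave 13.88, 14.47, 14.00, 13.12, 12.60 and 12.74 in P0.3 replicates 7, 5, 1, 3, 11 and 9. The P1.2 series fell at each step, and the P0.3 series did so apart from its first and last step. Pearson's r was -0.90 and Spearman's rho -0.88 over the 12 mice (permutation test, p = 6e-05 and 0.00029, and p = 0.012 for r after adjustment over all transcripts). Within P1.2 mice r was -0.99 and within P0.3 mice -0.89 (exact permutation test, n = 6 each, p = 0.0014 and 0.019).

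Rora was the 1 receptor of the 36 called by this test, while 2.17% of all transcripts were called, 0.752% with a negative and 1.41% with a positive r, and 3.83% of the transcripts above background. Without the 2 arrays farthest from the median slow fibre mean r was -0.86 (permutation test, p = 0.0013, adjusted p = 0.17, with 0 of all transcripts called), and without the 3 highest arrays it was -0.78 (exact permutation test, n = 9, p = 0.013, adjusted p = 0.59). Leaving out each array in turn kept r between -0.95 and -0.88. The other 2 rows of Rora gave r of -0.93 and -0.73. In a limma fit with diet as a second term, the Rora signal was lower by 0.32 log2 units (SE 0.05) for each log2 unit of the slow fibre mean (slope -0.32, adjusted p = 0.0010). Between the diets Rora overlapped, with 13.29 ± 0.46 in P1.2 mice and 13.47 ± 0.76 in P0.3 mice (SD, n = 6 each, log2 fold change -0.17, SE 0.30, exact permutation test, p = 0.636), and this difference was 0.03 without P0.3 replicate 5. The other rows of Rora had differences of 0.04 (the row mapped to the genome) and -0.42, so that the rows differed in sign.

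Markers of other cells moved with the slow fibre mean as well. In these bulk samples, fewer cells of a type and less RNA per cell cannot be told apart. The mean of 8 endothelial markers, 8 of 8 above background, had r = 0.86 and rho = 0.85 with the slow fibre mean (permutation test, p = 0.00049 and 0.00099), with 0.82 within P1.2 mice, 0.91 within P0.3 mice and 0.74 without the 2 farthest arrays. It ran from 8.86 to 9.93 in P1.2 mice and from 8.90 to 9.94 in P0.3 mice. The mean of 6 erythroid markers, 4 of 6 above background, had r = 0.81 and rho = 0.75 (permutation test, p = 0.0022 and 0.0072, 0.99 within P1.2 mice, 0.66 within P0.3 mice, 0.71 without the 2 farthest arrays), with list means of 8.57 to 9.61 in P1.2 mice and 8.41 to 9.38 in P0.3 mice. The fibroblast and tendon list, 7 of 8 above background, had r = 0.68 and rho = 0.65 (permutation test, p = 0.0069 and 0.026, 0.92 within P1.2 mice, 0.51 within P0.3 mice), but 0.46 without the 2 farthest arrays. Adjusted over the 9 marker lists, the p for the slow fibre mean were 0.0044, 0.0099 and 0.021, and for the other 6 lists 0.066 or more. Between the diets the exact permutation p of these 3 lists was 0.982 or more. Rora itself had r = -0.90 and rho = -0.87 with the erythroid mean (permutation test, p = 8e-05 and 0.00051, adjusted over the 9 lists p = 0.00072), with -0.97 within P1.2 mice, -0.92 within P0.3 mice and -0.84 without the 2 arrays farthest from the median erythroid mean. For the next lists too, the 2 farthest arrays in a relation with Rora are those farthest from the median of that list. With the endothelial mean Rora had r = -0.86 and rho = -0.86 (permutation test, p = 0.00042 and 0.00057, adjusted p = 0.0019, -0.86 within P1.2 mice, -0.93 within P0.3 mice, -0.80 without the 2 farthest arrays). With the fibroblast and tendon mean r was -0.58 and rho -0.55 (permutation test, p = 0.042 and 0.067, adjusted p = 0.096, -0.90 within P1.2 mice, -0.65 within P0.3 mice, -0.42 without the 2 farthest arrays). The smooth muscle and pericyte list, 6 of 8 above background, had r = -0.60 and rho = -0.68 with Rora (permutation test, p = 0.039 and 0.018, adjusted p = 0.096, -0.69 within P1.2 mice, -0.62 within P0.3 mice, -0.35 without the 2 farthest arrays). The relation of Rora with the erythroid list was thus as large as that with the slow fibre mean, and which of these measures Rora follows was not tested.

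**Figure D4:**
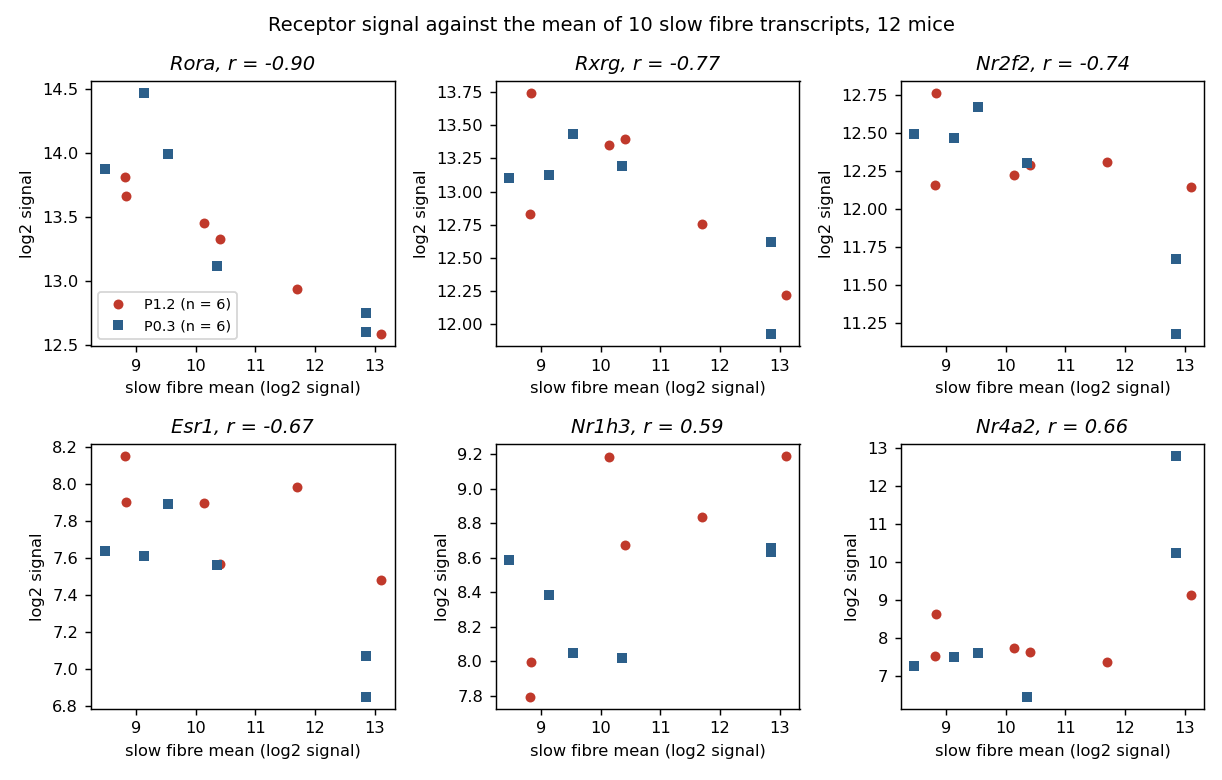
Log2 signal (y axis) of Rora, Rxrg, Nr2f2, Esr1, Nr1h3 and Nr4a2 against the slow fibre mean (x axis, mean log2 signal of 10 slow fibre genes), with 1 point per mouse (red circles P1.2, blue squares P0.3, n = 6 each). Rora falls along the whole range (r = -0.90), while Rxrg is lowest on the 3 arrays at the right. Nr2f2 and Esr1 are lowest, and Nr4a2 highest, on P0.3 replicates 9 and 11. For these 3 genes P1.2 replicate 12 lies near other P1.2 mice. It is the lowest of the P1.2 mice for Nr2f2 and Esr1 and the highest for Nr4a2.

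Rxrg, Nr2f2 and Esr1 were also lower on arrays rich in slow fibre transcripts, but their p missed the threshold after adjustment over all transcripts. Rxrg had r = -0.77 and rho = -0.55 (permutation test, p = 0.0033 and 0.067, adjusted p for r = 0.084), with -0.75 within P1.2 mice and -0.82 within P0.3 mice. In the limma fit with diet as a term its slope was -0.24 (SE 0.06, adjusted p = 0.028), one of 3.58% of all transcripts called there and of 1.35% called with a negative slope. Without the 2 farthest arrays r was -0.70, and without the 3 highest -0.28, so that the relation of Rxrg rests on those arrays. Nr2f2 had r = -0.74 and rho = -0.66 (permutation test, p = 0.0030 and 0.022, adjusted p for r = 0.082), with -0.47 within P1.2 mice, -0.92 within P0.3 mice, -0.77 without the 2 farthest arrays and -0.41 without the 3 highest. Esr1 had r = -0.67 and rho = -0.66 (permutation test, p = 0.015 and 0.023, adjusted p for r = 0.18), with -0.64 within P1.2 mice, -0.90 within P0.3 mice, -0.55 without the 2 farthest arrays and -0.01 without the 3 highest (r = -0.0084).

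In the other direction, Nr4a2 had r = 0.66 (rho 0.54, permutation test, p = 0.011 and 0.074, adjusted p for r = 0.15) and Nr1h3 r = 0.59 (rho 0.69, permutation test, p = 0.047 and 0.018, adjusted p for r = 0.31). Without the 3 highest arrays Nr4a2 had r = -0.32 and Nr1h3 0.49. Within P1.2 mice the r of Nr4a2 was 0.34 and within P0.3 mice 0.84, and those of Nr1h3 were 0.80 and 0.43. Without the 2 farthest arrays Nr4a2 had 0.61 and Nr1h3 0.46. Thra had r = 0.28 (rho 0.22, permutation test, p = 0.38 and 0.50, 0.32 within P1.2 mice and 0.26 within P0.3 mice) and Thrb r = -0.24 (rho -0.19, permutation test, p = 0.45 and 0.56, -0.26 and -0.22). Rxra and Rxrb had r of -0.43 and -0.50 in P1.2 mice (exact permutation test, n = 6, p = 0.38 and 0.30). In P0.3 mice they had 0.47 and 0.63 (exact permutation test, n = 6, p = 0.43 and 0.21). The signs were opposite, but none of these values could be told from 0.

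**Figure D5:**
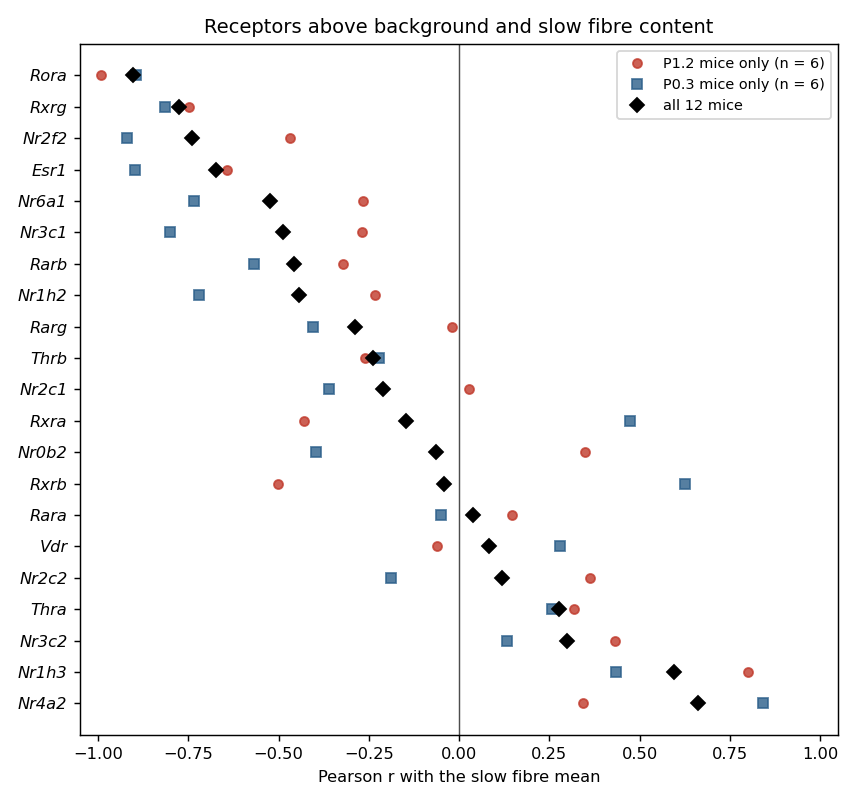
Pearson's r with the slow fibre mean (x axis) of the 21 receptors above background (y axis, sorted by r) over all 12 mice (black diamonds), within the 6 P1.2 mice (red circles) and within the 6 P0.3 mice (blue squares). Rora, Rxrg and Esr1 are negative in both diets with r of -0.64 or lower.

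The receptors were also set against the means of their target lists across the 12 mice, 7 relations in all, and 0 passed after adjustment over the 7 (0 also at an unadjusted p under 0.05). The largest was that of Nr3c1 with the glucocorticoid targets (r = 0.40, rho = 0.40, permutation test, p = 0.195 and 0.202, adjusted p = 0.44, 0.32 within P1.2 mice and 0.31 within P0.3 mice). Thra and Thrb had r = 0.29 and -0.28 with the thyroid hormone targets (permutation test, p = 0.361 and 0.375), with 0.33 and -0.36 within P1.2 mice and 0.31 and -0.26 within P0.3 mice. The mean of these 12 targets followed the slow fibre mean with r = 0.94, and 2 of them, Myh7 and Atp2a2, belong to the slow fibre list. The mean of the other 10 had r = 0.09 with it. Rora had r = -0.14 with the 8 ROR targets (permutation test, p = 0.650, -0.21 within P1.2 mice and -0.14 within P0.3 mice).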

How the data were processed

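RNA of the M. gastrocnemius of 6 P1.2 and 6 P0.3 mice was hybridized to Clariom S mouse arrays. The deposited log2 signals were computed by the authors with GCCN-SST-RMA in Affymetrix Expression Console (version 1.4), and the same values, rounded, make up the other deposited table. They were used without further normalization. The authors' fold changes, p-values and group means in the table were not used. Genome build and annotation of the array table were not given in the sources used here. Array medians ran from 6.29 to 6.40. An array value has no read count behind it, and precision is set by how many arrays there are (the standard error of the difference between diets had a median of 0.18).

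Each transcript was fitted with limma (version 3.58.1, lmFit and eBayes, R version 4.3.3) as P1.2 minus P0.3, with Benjamini-Hochberg adjustment over all 22206 transcripts. Exact permutation tests used all splits of the arrays (smallest p 0.0022). Correlations were tested with 100000 permutations (smallest p 1e-05), or exactly below 10 mice, and adjusted over all transcripts rather than over the receptors as first planned. Other software was scipy 1.17.1, numpy 2.4.6, matplotlib 3.10.9 and pandas 2.3.3 under Python 3.11.15, and the steps were tested on simulated data.

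The receptors and all lists were chosen with earlier results of these data known. Given with every array are the well expressed receptors with the 6 smallest limma p among them, receptors with an unadjusted p under 0.05, the 3 with the largest fold change, and those correlated with the slow fibre mean. Of each list the genes at the criteria or the 1 with the smallest p are named, apart from 1 list whose gene is not reported here; Fkbp5, Nr4a1 and Nr4a3 were picked with their values in view. Other settings tried were the methods' t-test, robust and trended priors, array weights, quantile normalization, median centring, the rounded table, a background filter, slow fibre mean as covariate, the mean of all rows, other background and expression levels, Myh7 alone, and leaving out each array. Fits without the 3 arrays of highest slow fibre mean, the slope with diet as a term and the correlations of marker lists with Rora were added after seeing the data. Protein sequences were not used here.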

Additional observations from a re-analysis of the deposited data

Results flagged for a closer look

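Among 72 groups of 6 mice (36 receptors in both diets), 4 had a lowest or highest mouse that lay far from the others for the range of the group, by Dixon's 95% critical value. Chance flags about 1 in 20 groups. Nr2f2 had 12.76 on P1.2 replicate 10, with the next P1.2 mouse at 12.31. Rxra had 10.54 on P0.3 replicate 5, below the next P0.3 mouse at 10.84. Nr1i3, at background, had 6.12 on P1.2 replicate 8, with the next at 5.59, and Nr2e1, also at background, had 5.49 on P0.3 replicate 11, with the next at 4.78.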

How the results depend on the processing

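The count of receptors with an adjusted p under 0.05 was 0 under each alternative run, and the receptors' median difference (log2) stayed between -0.08 and -0.02 in fits that left out 1 array. The count of receptors higher at the criteria, 1 in the report, was 0 with the methods' t-test, array weights, quantile normalization, only transcripts above background, and without the 3 arrays of highest slow fibre mean. Leaving out 1 array gave 0 to 2, the second being Nr3c1 without P1.2 replicate 12 or Pgr without P0.3 replicate 1. Without P1.2 replicate 10 the count was again 1, but the receptor called was Pgr and not Esr1. The count of lower receptors, 0 in the report, was 0 to 1 when 1 array was left out (Vdr without P1.2 replicate 4, Esr2 without P0.3 replicate 1, Nr5a1 without P0.3 replicate 5). The count at an unadjusted p under 0.05, 1 in the report, was 0 with the methods' t-test, with only transcripts above background and without the 3 arrays, and 0 to 3 when 1 array was left out. With quantile normalization and without P1.2 replicate 10 that count was 1, but the receptor was Pgr, at background. Without P1.2 replicate 4 the 1 receptor was Vdr. Well expressed receptors numbered 3 above the 90th percentile and 20 above the 50th, and 20 receptors were above the 99th percentile of the sensory receptors. The count correlated with the slow fibre mean, 1 in the report, was 0 without the 2 farthest arrays and 0 without the 3 highest, where 0 of all transcripts were called with 10 and 9 mice left. Called list genes, 2 in the report, numbered 0 with the methods' t-test, 1 with quantile normalization, 1 with only transcripts above background, 5 without the 3 arrays, and 0 to 5 when 1 array was left out, the highest count without P1.2 replicate 4. The 5 called without the 3 arrays were Ppara, Esrrg, Nr4a3, Hsd11b1 and Ucp3.

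The sign of the log2 fold change turned when 1 array was left out for Nr4a2 (-1.08 to 0.19, positive without P0.3 replicate 11), Nr2f2 (-0.0058 to 0.29, negative without P0.3 replicate 11), Rora (-0.35 to 0.029, positive without P0.3 replicate 5), Rxrg (-0.046 to 0.32, negative without P0.3 replicate 11) and Nr1h2 (-0.14 to 0.013, positive without P1.2 replicate 8 and, at 0.0036, without P0.3 replicate 1). Without the 3 arrays of highest slow fibre mean it turned for Nr4a2 (0.57) and Nr2f2 (-0.13). None of these differences had passed the criteria, and the cause was not tested. No paired analysis was possible because the diets share no replicate number. Signals of the 15 receptors at or below background are limited by the array's background.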
